A study of Mus musculus with 17 samples.

Results

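The protein part of the cytosolic ribosome was followed through its genes in mouse liver under 2 diets. Genes were taken by name, as Rpl or Rps followed by a number and at most a letter and a digit, together with Rplp0, Rplp1, Rplp2 and Rpsa, and pseudogene names ending in -ps were left out. This gave 80 of the 12334 genes in the RNA table, 47 of the large subunit and 33 of the small subunit. In the table of acetylated histone H3 lysine 9 (H3K9ac) it gave 182 of 57499 regions, named for 75 such genes. The livers came from C57BL/6 mice, an inbred laboratory strain, kept for 10 weeks on a high-fat diet (HFD), with 60% of calories as fat, or a control diet (CD), with 18%. Polyadenylated liver RNA was sequenced in 4 HFD and 4 CD libraries, lettered A to D in each diet. The H3K9ac libraries were lettered A, B and D in HFD and A, C and D in CD. The labels do not say whether a letter marks the same animal in both assays. The labels state no genotype other than the strain, and no sex, age or feeding state. An input library and 2 libraries of open chromatin, all from CD livers, were not analysed here.

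Cytosolic ribosomal proteins are built into the large and the small subunit in fixed proportions, and their genes are transcribed at high rates in nearly every cell. Many of their mRNAs begin with a run of pyrimidines, the terminal oligopyrimidine (TOP) motif, through which mTORC1 and the RNA-binding protein LARP1 set how strongly they are translated and how stable they are. In liver, ribosome content follows feeding and amino acid supply. H3K9ac marks the promoters of active genes.

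The starts of a few of these genes are printed because H3K9ac was read at promoters and because pyrimidine runs are known from many members of the family. Sequences are from RefSeq (GRCm38.p6, the assembly called mm10), which had an entry for 59 of the 80 genes, and all are given 5′ to 3′ on the gene's own strand. The start of Rpl12, a large subunit protein of the ribosomal stalk base, is shown from 250 bases before the annotated start to 20 after it, since its H3K9ac differed between the diets. Its region is chr2:32961462-32961732 on the + strand, and capitals mark its longest run of C and T within 20 bases of the start.
Rpl12: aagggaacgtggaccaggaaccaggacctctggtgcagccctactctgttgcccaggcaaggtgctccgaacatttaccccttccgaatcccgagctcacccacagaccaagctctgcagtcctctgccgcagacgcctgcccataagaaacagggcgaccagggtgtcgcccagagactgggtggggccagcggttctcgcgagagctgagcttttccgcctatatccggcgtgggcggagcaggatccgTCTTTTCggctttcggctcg
The next 5 are windows of 41 bases centred on the start for the other members with the smallest p-values in the RNA, with the longest C and T run in capitals.
Rplp0 (chr5:115559447-115559487, + strand): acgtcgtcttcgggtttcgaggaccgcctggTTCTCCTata
Rpsa (chr9:120127746-120127786, + strand): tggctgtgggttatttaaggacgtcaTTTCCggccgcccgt
Rps26 (chr10:128626486-128626526, - strand): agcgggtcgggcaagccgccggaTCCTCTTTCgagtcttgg
Rpl13 (chr8:123102330-123102370, + strand): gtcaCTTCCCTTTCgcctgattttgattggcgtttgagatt
Rpl10a (chr17:28328451-28328491, + strand): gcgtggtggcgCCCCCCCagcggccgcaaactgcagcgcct
Among the 59, the windows with the longest runs belonged to Rpl7a, Rpl27a, Rpl35 and Rpl15, all large subunit genes.
Rpl7a (chr2:26910787-26910827, + strand): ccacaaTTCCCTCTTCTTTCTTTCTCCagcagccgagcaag
Rpl27a (chr7:109519175-109519215, + strand): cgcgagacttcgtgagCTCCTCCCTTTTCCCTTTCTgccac
Rpl35 (chr2:39005111-39005151, - strand): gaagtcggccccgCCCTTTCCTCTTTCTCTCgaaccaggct
Rpl15 (chr14:18270966-18271006, - strand): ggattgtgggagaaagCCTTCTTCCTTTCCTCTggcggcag
The last 4 set the paralogs Rpl22l1 and Rps27l beside Rpl22 and Rps27, the genes they resemble.
Rpl22l1 (chr3:28805488-28805528, + strand): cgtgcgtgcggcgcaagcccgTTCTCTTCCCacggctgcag
Rpl22 (chr4:152325706-152325746, + strand): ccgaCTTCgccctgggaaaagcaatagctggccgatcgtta
Rps27l (chr9:66946066-66946106, + strand): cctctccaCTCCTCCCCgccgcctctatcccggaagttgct
Rps27 (chr3:90213628-90213668, - strand): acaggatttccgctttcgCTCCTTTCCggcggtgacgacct
The RefSeq start was the one given in the RNA table for 46 of the 59 members and within 50 bases of it for 55. Of the genes printed, Rpl22l1 and Rps27l start 3 and 32 bases further upstream in RefSeq, and Rpl22 starts 1290 bases further downstream, so its window is not at the start used for the RNA table.
A run of at least 8 pyrimidines within 20 bases of the annotated start was found in 29 of the 59 members (49.2%), against 16.3% of all 27025 RefSeq promoters read and 16.2% of the 9462 among them that belong to genes in the RNA table. The run covered the start base in 14 members (23.7%), against 3.60% of all promoters and 3.71% of those of genes in the RNA table. A counted run can also end before the annotated start, as in Rpl13, and would then lie outside an mRNA begun there. The sequence CCGGAAG, read on both strands over the 300 bases of each entry, was present in 23 members (39.0%) and in 9.12% of all promoters and 18.1% of those of genes in the RNA table. Its reverse complement, CTTCCGG, opens with 5 pyrimidines, so a match can overlap a run. Rpl12 had a run of 7 and no CCGGAAG, and the annotated start need not be the base at which transcription begins in liver.

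The members were among the most abundant mRNAs of the liver. In CD livers their median level was 158 FPKM, a level per transcript length, against 5.33 FPKM over all genes. Of the 80 members, 70 lay between 50 and 400 FPKM. The highest were Rpl10, with 394 ± 76.6 FPKM in HFD and 410 ± 66.4 FPKM in CD, and Rps2, with 378 ± 77.0 FPKM in HFD and 398 ± 47.6 FPKM in CD (SD, n = 4 each). Rpl10 is a late-joining large subunit protein at the peptidyl transferase centre, and Rps2 a small subunit protein near the mRNA entry. Rpl7a, Rpl28 and Rplp1 followed in the order of CD levels. They had 298 ± 63.0, 295 ± 75.9 and 270 ± 75.7 FPKM in HFD and 347 ± 38.4, 340 ± 42.0 and 337 ± 69.2 FPKM in CD. Each of these 5 levels differed from its neighbour in the CD order by less than 1 SD, except Rps2 and Rpl7a in HFD and in CD. In HFD, Rpl4 stood above Rplp1, at 282 ± 38.6 FPKM.

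The lowest members were Rpl30, Rps27, Rpl34, Rps15a and Rps4l. Rpl30 stood at 0.956 ± 0.114 FPKM in HFD and 1.07 ± 0.238 FPKM in CD, Rps27 at 1.06 ± 0.238 FPKM in HFD and 1.10 ± 0.357 FPKM in CD, and Rpl34 at 2.89 ± 0.883 FPKM in HFD and 2.76 ± 0.883 FPKM in CD (SD, n = 4 each). These 3 had between 14 and 95 reads per library, against at least 359 for each of the other 77 members. Their values are uncertain. Ribosomal protein genes have many near-identical processed copies, and the authors' treatment of reads that match several places is not given in the sources used here. That limit also applies to the levels of the other members. The H3K9ac table named the region over the start of Rps27 for Rps27rt and that over Rpl34 for Rpl34-ps1, names that the member rule leaves out. Rps15a reached 11.3 ± 2.22 FPKM in HFD and 12.2 ± 1.83 FPKM in CD, over a listed length of 5134 bases where the median of the members was 706.5 bases. Rps4l, a relative of Rps4x, reached 18.0 ± 3.28 FPKM in HFD and 19.6 ± 4.6 FPKM in CD.

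Between the diets, no ribosomal protein mRNA passed the test, although nearly all had a lower fitted level in HFD. Of the 80 members, 0 were higher and 0 lower at an adjusted p under 0.05 (edgeR quasi-likelihood test, Benjamini-Hochberg over all genes), where 7.27% of all genes tested were called. At an unadjusted p under 0.05, 6 members were lower (7.5%), against 10.0% of all genes. DESeq2 also called 0 members, and the lowest false discovery rate of a member in the authors' deposited table was 0.0605, for Rpl12. The log2 fold change, HFD over CD, was negative in 78 members, with a median of -0.17 and a range of -0.54 to 0.07, beside a median of 0.01 over all genes. Large and small subunit genes had the same median of -0.17, over 47 and 33 genes. Members share their libraries, so the number on one side says less than 80 separate genes would.

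The members varied together from library to library. Relative to the CD mean, HFD A to D had mean log2 levels of 0.23, -0.19, -0.30 and -0.47 over the members, against 0.20, -0.20, -0.11 and 0.11 in CD A to D. HFD A was above the CD mean in 75 members, and was the highest HFD library in 78. HFD D was the lowest HFD library in 75 members, and the highest CD library was A or D in all 80. The members took 1.09, 0.854, 0.858 and 0.761% of all counts in HFD A to D, against 1.13, 0.956, 0.98 and 1.11% in CD A to D. These shares average 0.889 ± 0.138% in HFD and 1.04 ± 0.0871% in CD (SD, n = 4 each), and the diets overlap. The widest 95% Wilson interval of a share was ± 0.0036 percentage points. The intervals of HFD B and HFD C overlapped, and those of all other libraries lay apart. Within a diet, the SD of log2 level had a median of 0.30 in HFD and 0.19 in CD over the members, and of 0.24 in HFD and 0.17 in CD over all genes.

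**Figure D1:**
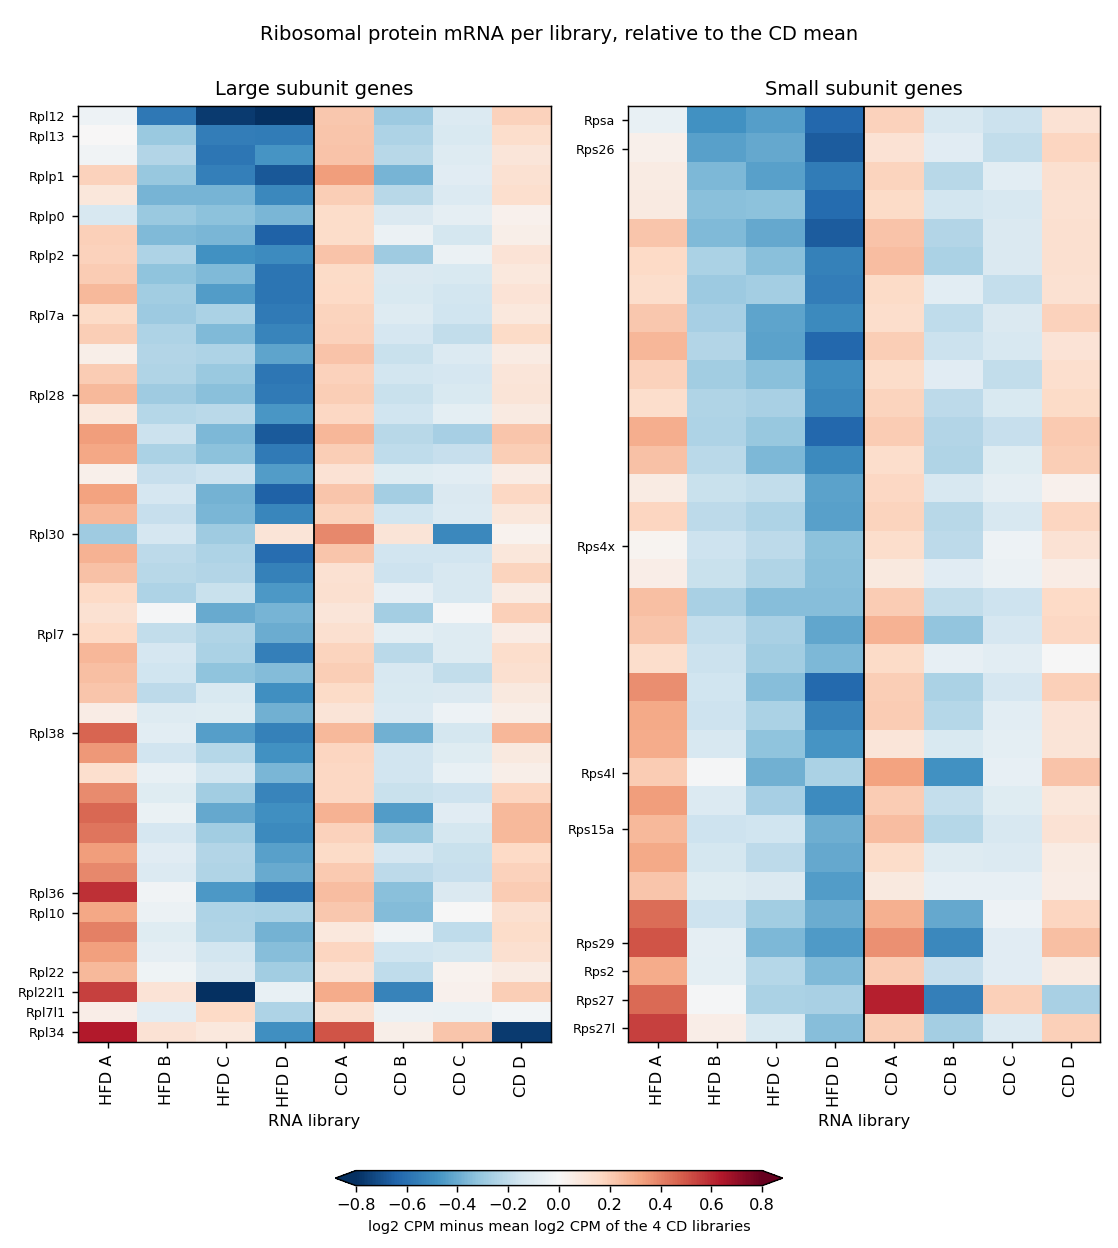
Each row is a ribosomal protein gene, each column an RNA library (HFD A to D, then CD A to D), and the colour is log2 CPM minus the mean log2 CPM of the 4 CD libraries, limited to 0.8 either way. Genes are ordered by log2 fold change within the large subunit (left) and the small subunit (right), and names are given for some of the genes described singly in the text. HFD A is mostly red and HFD D mostly blue, while CD A and D are red and CD B and C pale or blue.

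The result rests in part on HFD A, and both values are given. HFD A was the highest HFD library in 78 members, so leaving it out lowers most of their fold changes. Members also vary together, so calls among them are not separate results. Without HFD A, 13 members (16.2%) were lower and 0 higher, against 4.73% of all genes called lower in that fit, and the median log2 fold change was -0.33. Among them were Rpl12, Rpsa, Rps26, Rpl35, Rpl13a, Rpl27a, Rps12, Rpl13, Rplp0 and Rps16, with adjusted p-values of 0.00723 (Rpl12) to 0.0495 (Rps16). Leaving out each of the other 7 libraries called 0 members, with medians of -0.08 without HFD D to -0.23 without CD B. Scaling by library totals in place of TMM factors called 2 members lower, Rplp0 and Rpsa (adjusted p = 0.0351 and 0.0458), where 3.99% of all genes were called lower.

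Short genes, long genes and markers of other liver cells also varied between the libraries, the markers not always in step with or against the members. Of the members, 72 were no longer than 1678 bases, the limit of the shortest 1 in 5 of the other genes. Those short genes had a median log2 deviation from the CD mean of 0.33, 0.03, -0.09 and -0.12 in HFD A to D and 0.12, -0.13, -0.07 and 0.09 in CD A to D. The longest 1 in 5, of at least 4934 bases, went the other way, at -0.34, -0.01, 0.13 and 0.14 in HFD A to D and -0.11, 0.11, 0.08 and -0.08 in CD A to D. The members' mean was below the short genes' median in every HFD library. It was 0.23 against 0.33 in HFD A and -0.19 against 0.03 in HFD B. In HFD C it was -0.30 against -0.09, and in HFD D -0.47 against -0.12. In CD A to D the members had 0.20, -0.20, -0.11 and 0.11, on the same side of 0 as the short genes and farther from it.

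The 14 Kupffer cell and macrophage markers averaged -0.70, -0.05, 0.18 and 0.77 in HFD A to D and 0.11, 0.33, -0.17 and -0.27 in CD A to D. Their summed level ran from 179 to 476 CPM in HFD and from 232 to 339 CPM in CD, and 0 of them passed the test. The 13 stellate cell and matrix markers summed to 232 to 476 CPM in HFD and 319 to 375 CPM in CD, with 0 past the test. The 12 sinusoidal endothelial markers summed to 179 to 361 CPM in HFD and 218 to 303 CPM in CD, with 0 past the test. Of 6 cholangiocyte markers, summing to 57.4 to 83.7 CPM in HFD and 84.6 to 100.5 CPM in CD, Sox9 was lower (log2 fold change -1.45). The 4 of 10 lymphocyte markers that the table lists summed to 9.25 to 19.4 CPM in HFD and 9.98 to 12.8 CPM in CD, with 0 past the test. In all these lists, no marker stayed under 1 CPM in every library. The 12 hepatocyte markers summed to 134377 to 158747 CPM in HFD and 122653 to 138306 CPM in CD, as the liver label has it, and 0 passed. The part of gene length and of these cells in the members' levels was not tested. In whole liver, fewer cells of a type and less RNA per cell cannot be told apart. The RNA column headings also carry running numbers that separate the diets completely, so the diet cannot be told apart from whatever those numbers stand for.

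**Figure D2:**
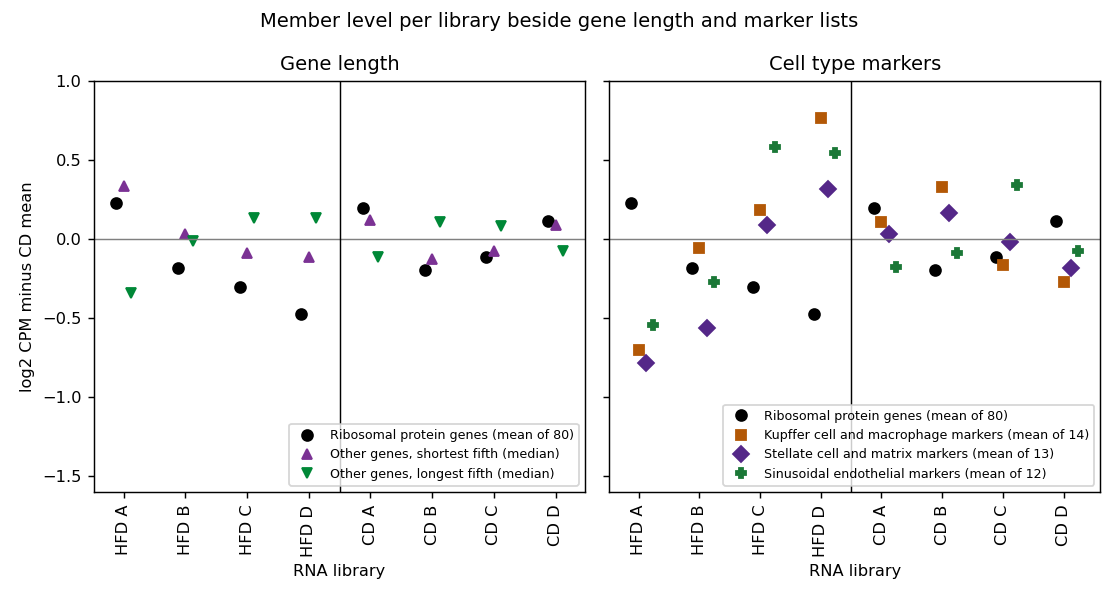
Log2 CPM relative to the CD mean, by RNA library (HFD A to D, then CD A to D), as the mean over the 80 members (black circles), beside the median over the shortest and longest 1 in 5 of other genes by length (left) and the mean over 3 cell type marker lists (right). In HFD A the members and short genes are above 0 and long genes and markers below it, and in HFD D the members are at -0.47 and the Kupffer cell markers at 0.77.

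Rpl12 had the lowest fold change of the family. It stood at 141, 97.7, 85.5 and 80.7 CPM in HFD A to D, against 169, 119, 135 and 166 CPM in CD A to D (CPM, counts scaled to library size with TMM factors). HFD B, C and D lay below every CD library, and HFD A within the CD range. Its means were 101 ± 27.6 CPM in HFD and 147 ± 24.2 CPM in CD (SD, n = 4 each), a log2 fold change of -0.54 (SE 0.18, adjusted p = 0.122, edgeR quasi-likelihood test). The adjusted p was 0.00723 without HFD A.

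Rplp0, the scaffold protein of the ribosomal stalk and a common reference gene in quantitative PCR, varied least of the stalk genes. It had 250, 223, 218 and 213 CPM in HFD A to D, against 303, 253, 261 and 281 CPM in CD A to D. It was the single member whose HFD values all lay below its CD values, a pattern found in 7.01% of all genes. The log2 fold change was -0.28 (SE 0.10, adjusted p = 0.129, edgeR).

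Rplp1 and Rplp2 are the acidic proteins that bind Rplp0 and recruit elongation factors. Rplp1 had 176, 126, 106 and 96.9 CPM in HFD A to D and 196, 120, 146 and 169 CPM in CD A to D, with a log2 fold change of -0.32 (SE 0.20, adjusted p = 0.427). Rplp2 had 77.2, 57.2, 48.6 and 48.0 CPM in HFD A to D and 79.4, 55.8, 65.6 and 73.1 CPM in CD A to D, with a log2 fold change of -0.25 (SE 0.17, adjusted p = 0.475). In both genes the diets overlapped, HFD A being as high as the upper CD libraries.

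Rpsa, a small subunit protein also known as the laminin receptor, had 282, 211, 217 and 190 CPM in HFD A to D, against 334, 270, 261 and 319 CPM in CD A to D. HFD A alone overlapped the CD range. The log2 fold change was -0.39 (SE 0.14, adjusted p = 0.132, edgeR), the lowest of the small subunit.

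Rps26, which contacts mRNA at the exit of the small subunit, had 120, 86.6, 87.9 and 73.9 CPM in HFD A to D, against 127, 110, 102 and 132 CPM in CD A to D (log2 fold change -0.35, adjusted p = 0.221). Rpl13 had 115, 93.2, 77.9 and 77.8 CPM in HFD A to D, against 134, 96.7, 105 and 126 CPM in CD A to D (log2 fold change -0.35, adjusted p = 0.229). Rpl10a, which has an unadjusted p under 0.05 as well, had 67.3, 58.4, 46.0 and 49.6 CPM in HFD A to D, against 80.5, 59.0, 63.9 and 73.5 CPM in CD A to D (log2 fold change -0.32, adjusted p = 0.231). In all 3, HFD A lay within the CD range and HFD B, C and D below it.

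**Figure D3:**
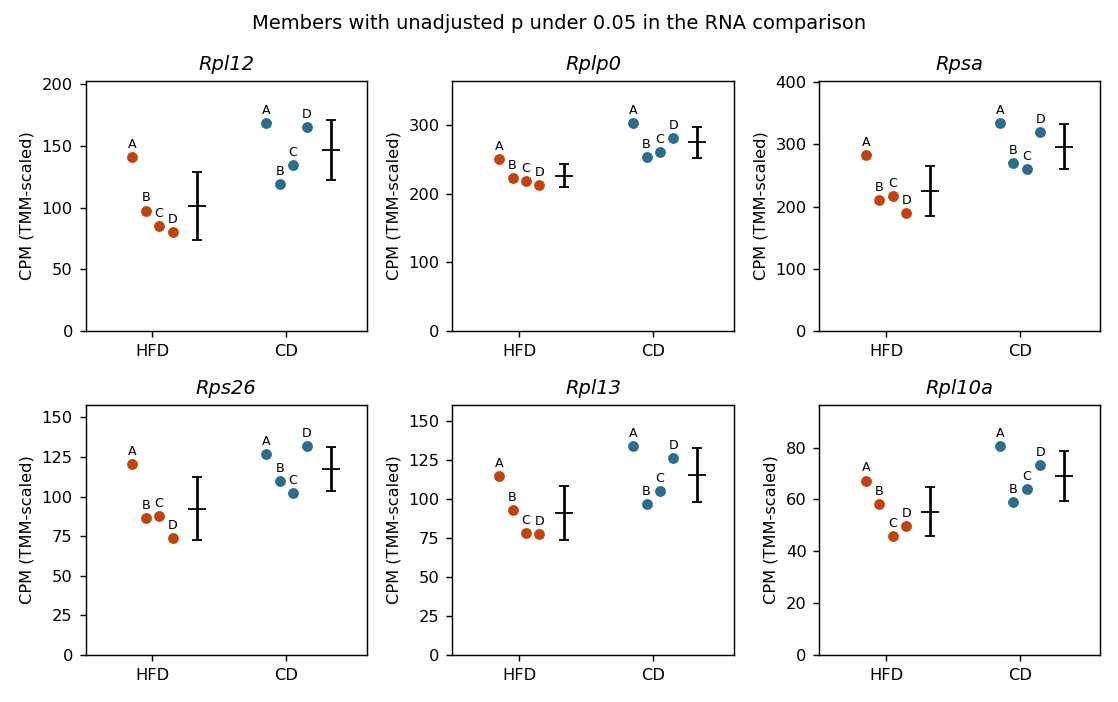
CPM per RNA library (letters) in HFD (left in each panel) and CD (right) for the 6 members with an unadjusted p under 0.05, with the mean and SD as black bars (n = 4 each). HFD A is the highest HFD library in each panel, and only Rplp0 has no overlap between the diets.

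The paralogs had log2 fold changes of -0.12 to 0.06, none of them past the test. Rps27l, a p53-responsive relative of Rps27, had 137, 97.2, 86.0 and 74.0 CPM in HFD A to D and 107, 77.4, 86.6 and 107 CPM in CD A to D, with a log2 fold change of 0.06 (SE 0.19, adjusted p = 0.912). It and Rpl34, at 0.07 and few reads, were the members with a positive value. Both signs rest on single libraries: without HFD A the values were -0.15 for Rps27l and -0.16 for Rpl34, and all 80 members were negative. Rpl22l1 had 30.6, 22.7, 10.9 and 20.1 CPM in HFD A to D and 25.8, 14.5, 21.5 and 24.1 CPM in CD A to D, and its SD of log2 level in HFD, 0.62, was the largest of the members. Its log2 fold change was -0.02 (SE 0.28, adjusted p = 0.98).

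Rpl22, an RNA-binding protein known to repress Rpl22l1, had a log2 fold change of -0.03 (SE 0.13, adjusted p = 0.936). Rpl7l1, a nucleolar relative of Rpl7, had -0.02 (SE 0.11, adjusted p = 0.950), and Rpl7 itself -0.16 (SE 0.13, adjusted p = 0.570). Rps4l and Rps4x had -0.12 (SE 0.19, adjusted p = 0.793) and -0.17 (SE 0.11, adjusted p = 0.460). Rps27 had -0.04 (SE 0.32, adjusted p = 0.969) on its few reads. Differences between a paralog and its relative were not tested.

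Members tracked each other closely over the 8 libraries. As a description, the correlation of log2 CPM between a member and the mean of the other members had a median of 0.97, and exceeded 0.9 in 69 members. It was under 0.5 in Rpl30 (0.11) and Rpl34 (0.40), both with few reads, and 0.54 in Rpl7l1. The largest SDs within a diet were those of Rpl22l1, Rpl36 and Rpl38 in HFD (0.62, 0.52 and 0.46) and of Rpl34, Rps27 and Rps29 in CD (0.52, 0.46 and 0.39). Among all other genes, those most like the members' mean over the 8 libraries were Snrpd2, Ppia, Gps1, Chchd10 and Ssr4, with correlations of 0.98 to 0.99. Snrpd2 is a core protein of spliceosomal particles and Ppia a cytosolic prolyl isomerase. Lengths of these 5 ran from 488 to 2071 bases. All genes share the same 8 libraries, and the part of depth and gene length in these correlations was not tested.

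Other genes of the translation apparatus were read from lists. Of 14 genes known for TOP mRNAs, among them elongation and initiation factors, 1 was lower, the histone chaperone Nap1l1, where 7.27% of all genes were called, and the median log2 fold change was -0.02. Nap1l1 had 45.2 ± 4.72 CPM in HFD and 61.3 ± 7.45 CPM in CD (SD, n = 4 each, adjusted p = 0.0470, edgeR), and passed without CD D but not without any other single library (adjusted p up to 0.131 without CD B). Eef1g and Eef1b2, subunits of the factor that recharges the elongation factor, had log2 fold changes of -0.22 and -0.20 (adjusted p = 0.251 and 0.361). Of 22 translation initiation factors 0 passed, with a median of -0.01. Of 38 ribosome biogenesis genes 0 passed, with a median of -0.13, and 2 were lower without HFD A, where 4.73% of all genes were called lower. Nop56, a core protein of box C/D particles, had the smallest p of that list (log2 fold change -0.46, adjusted p = 0.0542).

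Among 22 genes of mTORC1 and TOP mRNA control, 1 was higher and 2 were lower, where 7.27% of all genes were called in either direction. Whether the list differs from other genes was not tested, and the 3 are described singly. Larp1, the TOP mRNA binding protein, had 251, 243, 261 and 242 CPM in HFD A to D, against 332, 335, 322 and 308 CPM in CD A to D, with no overlap. Its log2 fold change was -0.38 (SE 0.08, adjusted p = 0.0207, edgeR), and the call was lost on leaving out HFD B (adjusted p = 0.0861), CD A (0.0667), CD B (0.0614) or CD C (0.0639). HFD A lay among the other HFD libraries for Larp1, unlike for the members.

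Myc, a transcription factor that drives ribosomal protein and ribosome biogenesis genes, had 1.90, 3.41, 1.13 and 3.62 CPM in HFD A to D, against 20.7, 25.4, 11.8 and 3.88 CPM in CD A to D (log2 fold change -2.62, SE 0.53, adjusted p = 0.0143). CD D was close to the HFD libraries. Its relative Mycn had 2.91 ± 0.229 CPM in HFD and 1.26 ± 0.421 CPM in CD (SD, n = 4 each, log2 fold change 1.22, adjusted p = 0.0111). Both calls held when each library was left out in turn.

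The promoters of ribosomal protein genes carried strong H3K9ac, and its log2 fold changes between the diets centred near 0. The H3K9ac table gave 67 members a promoter region, the strongest region within 1000 bases of the start by the authors' distances. Its median signal was 68.3 CPM, against 52.6 CPM over the promoter regions of 10101 genes also in the RNA table. Members' regions were also longer than those of all 12892 promoters, at a median of 1699 against 1360 bases. Per kilobase the medians were 36.7 CPM for members and 34.5 CPM for genes in the RNA table. The strongest were those of Rpl7, at 211 ± 13.5 CPM in HFD and 202 ± 4.32 CPM in CD, Rpl19, at 141 ± 9.20 CPM in HFD and 149 ± 4.38 CPM in CD, and Rps19, at 131 ± 9.46 CPM in HFD and 138 ± 2.99 CPM in CD (SD, n = 3 each). Rps19 is the gene most often mutated in Diamond-Blackfan anaemia.

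The weakest promoter regions belonged to Rpl23, Rpl27 and Rpl3l, at means of 1.41, 2.08 and 2.08 CPM over the 6 libraries. For Rpl23 the region over the start given in the RNA table had 83.6 CPM and was named for Snora21, a small RNA gene in its intron. Another region named for Rpl27, of 42.9 CPM, began just past its start but lay 1059 bases away by the authors' distance, outside the limit of 1000. In 13 members the region over that start was named for another gene, among them 7 named for a small nucleolar RNA. A region of any name covered the start of 77 of the 80 members (96.2%), against 89.6% of all genes in the RNA table. Rpl30, with under 1.1 FPKM, had a promoter region of 60.4 ± 3.22 CPM in HFD and 62.3 ± 3.23 CPM in CD. The start regions of Rps27 and Rpl34, also of few reads, had 51.3 and 58.8 CPM. Promoter signal and RNA level were weakly related across the 66 members with both (Pearson r = 0.15 on log2 values, a description across genes). The 66 include the weak regions of Rpl23 and Rpl27 and the few reads of Rpl30, and r without them was not computed.

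Of the 182 member regions, 2 were lower in HFD (1.1%) and 0 higher at an adjusted p under 0.05 (edgeR quasi-likelihood test over all regions), where 1.55% of all regions were called lower and 0.835% higher. The share of member regions called lower was near that of all regions. Over the 67 promoter regions the median log2 fold change was -0.02, with 38 negative and 29 positive, against 0.01 over all promoters. Of them, 62 (92.5%) were within 0.15 of 0, against 70.3% of all promoters. All promoters had a lower median signal, 39.0 CPM against 68.3 CPM, and weaker regions vary more by counting. The part of signal level in this difference was not tested. HFD and CD values did not overlap in 3 promoter regions with HFD lower (Rpl12, Rpl10a and Rps15a) and in 3 with HFD higher (Rpl4, Rpl7a and Rpl37), where 8.36% and 7.05% of all regions had these patterns.

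The promoter region of Rpl12, chr2:32960636-32963484, was 2849 bases long and covered the sequence printed above. Its H3K9ac was 65.6, 60.3 and 69.7 CPM in HFD A, B and D, against 87.0, 84.0 and 75.1 CPM in CD A, C and D. The means were 65.2 ± 4.74 CPM in HFD and 82.0 ± 6.16 CPM in CD (SD, n = 3 each), a log2 fold change of -0.33 (SE 0.09, adjusted p = 0.0157, edgeR). The call was lost without HFD A (adjusted p = 0.0786), HFD B (0.263), CD A (0.136) or CD C (0.114). The authors' deposited table gives it a false discovery rate of 0.0273. The authors' annotation puts Lrsam1, a ubiquitin ligase gene, and Snora65 within 10 kilobases, so the region may not belong to Rpl12 alone.

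The other region, chr4:136094143-136096196, lay 41799 bases from the start of Rpl11 by the authors' distance, and no gene part was annotated over it. It was named for Rpl11, a large subunit protein that binds MDM2, only as the nearest start. It had 12.1, 10.1 and 12.3 CPM in HFD A, B and D, against 19.7, 17.2 and 14.9 CPM in CD A, C and D (log2 fold change -0.59, SE 0.15, adjusted p = 0.0130, edgeR). The call was lost without HFD B (adjusted p = 0.261), CD A (0.170) or CD C (0.0673). The promoter region of Rpl11 itself had a log2 fold change of -0.03.

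**Figure D4:**
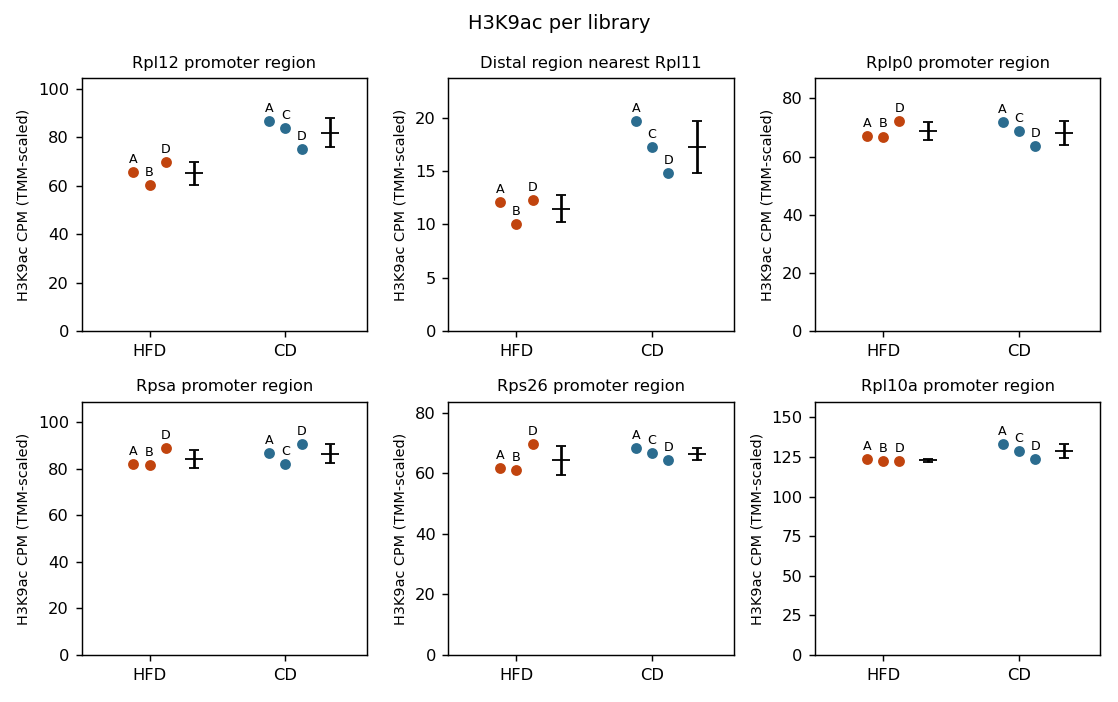
H3K9ac CPM per library (letters) in HFD (left in each panel) and CD (right), with the mean and SD as black bars (n = 3 each), for the 2 called regions and 4 promoter regions of members with small p-values in the RNA. The diets separate at the Rpl12 promoter and the distal region nearest Rpl11, overlap for Rplp0, Rpsa and Rps26, and nearly touch for Rpl10a.

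The promoters of the other members with small p-values in the RNA had log2 fold changes near 0, none of them past the test. Rplp0 had 68.8 ± 3.13 CPM in HFD and 68.1 ± 4.16 CPM in CD (log2 fold change 0.01, adjusted p = 0.982). Rpsa had 84.3 ± 3.99 CPM in HFD and 86.6 ± 4.19 CPM in CD (log2 fold change -0.04, adjusted p = 0.923). Rps26 had 64.2 ± 4.65 CPM in HFD and 66.4 ± 1.90 CPM in CD (SD, n = 3 each, log2 fold change -0.05, adjusted p = 0.902). The SE of a member promoter's log2 fold change had a median of 0.09, so changes of that size were not detectable.

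Rpl12 thus had the lowest fitted change of the family in RNA and, among promoter regions, in H3K9ac. Across the 66 members with both, the changes had r = 0.33, and r = 0.15 over the 65 without Rpl12, as a description across genes that share libraries. The labels do not tie a letter in the RNA to the animal of that letter in the H3K9ac.

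**Figure D5:**
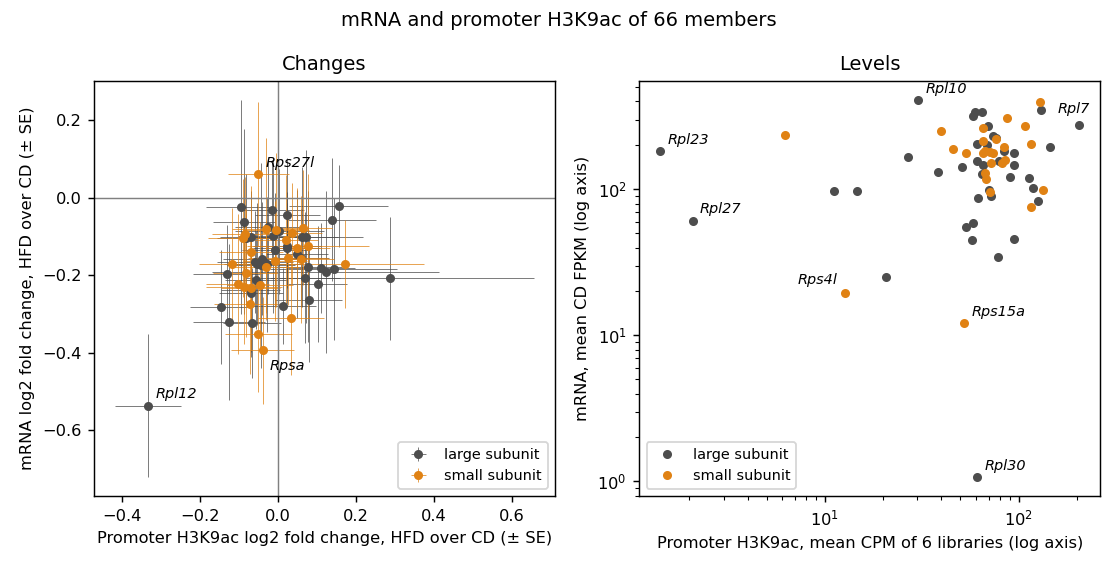
Left, log2 fold change (HFD over CD) of mRNA against that of the promoter H3K9ac region for 66 members, with SE as bars. Right, mean CD FPKM against mean promoter CPM of the 6 H3K9ac libraries, both on log axes. Rpl12 stands alone at the lower left (-0.33 and -0.54), and Rpl30 has strong promoter signal at about 1.07 FPKM.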

How the data were processed

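Per the file headers, the deposited RNA table gives raw counts and log2 FPKM for each gene, and the deposited H3K9ac table gives raw counts for each region and its distance from the nearest start. Both hold the authors' own log2 fold changes and p-values, per the file headers. Coordinates are mm10, as the submitters' processing notes name it. How reads were aligned and counted, with or without strand, and how regions were called is not given in the sources used here. Libraries held 31802893 to 37596560 RNA counts and 9255635 to 12149497 H3K9ac counts. Intervals (95%, Wilson) cover counting error only. Blank lines (4999) and repeated region lines were left out, and 0 value columns were unmatched.

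The HFD against CD test was edgeR 4.0.16 under R 4.3.3 (TMM, filterByExpr, glmQLFit, glmQLFTest, diet only, two-sided), fitted per assay over the whole table, with Benjamini-Hochberg adjustment over it and a threshold of 0.05. All adjusted p-values given without a tool are from this test. SE are from the F statistic. The filter removed 0 genes and 0 regions. FPKM are the authors' log2 values turned back to a linear scale, and log2 levels use a prior count of 2. DESeq2 1.42.0 was an alternative. The fit was tested on simulated data. Other settings were library totals, size factors, filters, leaving out each library, and a replicate block. Some single genes are not reported here. Members and lists were chosen with earlier results of these data known. Named genes are those with the smallest p, the highest and lowest levels, the largest SDs, paralogs and stalk genes. The series describes 4 mice per diet and does not say which library came from which, so p-values measure the spread between these libraries.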

Additional observations from a re-analysis of the deposited data

Results flagged for a closer look

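In 54 sets of 4 RNA libraries (the named members, the members' mean and their share of counts, in each diet), 0 libraries stood apart by Dixon's test at its 95% level, where chance alone gives about 1 in 20. H3K9ac has too few libraries per diet for this test.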

How the results depend on the processing

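Over all genes, 897 were called in the RNA. The count was 543 with a filter at the median level and 1405 with DESeq2, and 478 to 1107 when single libraries were left out. Members called lower numbered 0, with 2 under library totals and 0 to 13 when single libraries were left out. The median log2 fold change of members stayed negative in every setting run, between -0.33 without HFD A and -0.08 without HFD D. It was -0.17 for members of at least 10 CPM, a limit chosen after seeing the data. In the H3K9ac, 1372 regions were called, 887 with a filter at the median level, 813 with DESeq2, and 563 to 1862 when single libraries were left out. Member regions called lower numbered 2, and 0 to 3 when single libraries were left out. The promoter median changed sign between settings but stayed within -0.05 to 0.01. It was -0.03 for regions within 5000 bases, and -0.03 for the region over the start whatever its name, chosen after seeing the data.

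Letters are shared between the diets. Deviations of libraries with the same letter correlated at 0.29, 0.06, 0.23 and -0.22 in the RNA and 0.09 and 0.08 in the H3K9ac. In the RNA, not every library correlated best with its own letter. In the H3K9ac, both same-letter values were above those of differing letters (-0.12 to 0.05), though all were small. Whether letters pair the libraries was not tested. With a replicate block, 826 genes and 1277 regions were called, with 0 members in the RNA and 0 member regions (Rpl12 promoter -0.26, adjusted p = 0.0641, and Rpl11 region -0.50, adjusted p = 0.116). With the block, the sign turned in the promoter regions of Rpl22l1 (to 0.014), Rps29 (0.013), Rpl22 (0.092) and Rpl27 (-0.063). When single libraries were left out, the sign of the log2 fold change was not stable in the RNA for Rpl10 (-0.21 to 0.017), Rpl22 (-0.16 to 0.043), Rpl22l1 (-0.27 to 0.19), Rpl34 (-0.16 to 0.25), Rpl36 (-0.36 to 0.078), Rpl38 (-0.38 to 0.0045), Rpl7l1 (-0.088 to 0.047), Rps2 (-0.24 to 0.0046), Rps27 (-0.24 to 0.19), Rps27l (-0.15 to 0.17) and Rps29 (-0.33 to 0.046), nor in the H3K9ac for the promoter regions of Rpl22 (-0.055 to 0.058), Rpl27 (-0.0056 to 0.23), Rpl28 (-0.0014 to 0.17), Rplp0 (-0.023 to 0.053), Rps27l (-0.087 to 0.0023), Rps29 (-0.088 to 0.0049), Rps4l (-0.021 to 0.23) and Rpsa (-0.076 to 0.0041). None of these was called, with or without a library. For single genes and regions named, 690 of the recomputed values kept their sign and their side of the threshold, 22 lost a call, 7 gained one and 43 changed sign. The cause of these changes was not tested. Depth limits Rpl30, Rps27 and Rpl34 most, with 14 to 95 reads per library.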

Other observations

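Of the summed mean CPM of the 182 member regions, the 67 promoter regions held 85.8%. A further 70 member regions lay 1000 to 10000 bases by the authors' distance from the start named for them, with a median of 1.6 CPM and a highest of 85.7 CPM, and 43 lay farther away, with a median of 2.24 CPM and a highest of 172 CPM. Among these regions, the smallest p-values after the called region belonged to a region nearest Rps14 (log2 fold change -1.06, adjusted p = 0.0705), a region nearest Rplp0 (0.90, adjusted p = 0.181) and a region beyond the Rpl19 promoter (0.96, adjusted p = 0.198).

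Rpl3l, the paralog of Rpl3 used in heart and skeletal muscle, was named in the H3K9ac table but is not among the genes of the RNA table. Its promoter region held 2.08 CPM over the 6 libraries, while that of Rpl3 held 38.4 CPM.

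Members with a pyrimidine run of at least 8 on either side of the start or over it (29) had a median log2 fold change of -0.16 in the RNA. The 30 with a shorter run had a median of -0.17. The ranges were -0.35 to 0.07 and -0.54 to -0.02.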
